A study of Mus musculus with 6 samples.

Results

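A set of 10 genes for secreted blood plasma proteins, all of them classic products of the fetal liver, were followed in anti-m6A RNA immunoprecipitation (IP) libraries of fetal mouse heart. They were albumin (Alb, ENSMUSG00000029368), alpha-fetoprotein (Afp, ENSMUSG00000054932), transthyretin (Ttr, ENSMUSG00000061808), transferrin (Trf, ENSMUSG00000032554), the apolipoproteins Apoa1 (ENSMUSG00000032083), Apoa2 (ENSMUSG00000005681), Apob (ENSMUSG00000020609) and Apoh (ENSMUSG00000000049), fetuin-A (Ahsg, ENSMUSG00000022868) and the fibrinogen beta chain (Fgb, ENSMUSG00000033831). These 10 of the 48505 genes in the deposited tables were chosen by name after their IP values in these libraries had been seen to be high in 1 sham library, so that excess is given below as a description with no test. All windows of a gene were summed, 1335 windows of 5193362 in all.

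The samples were 6 pools of fetal hearts from FVB/NJ wild-type (WT) mice, male and female fetuses together. In the nano-TiO2 group (3 pools) the dams, 10 weeks old, had inhaled titanium dioxide nanoparticles at a target of 12 mg/m3 for 360 minutes a day on 6 days within a span of 8 days, beginning on gestational day (GD) 5. In the sham group (3 pools) dams of the same strain and age had breathed filtered air in the chamber on 6 days. Hearts of both groups were collected on GD 15, and each pool gave 1 library of RNA fragments bound by an antibody to N6-methyladenosine (m6A), a methyl mark on adenosines of messenger RNA. The sources used here do not give how many hearts or litters went into a pool, so the spread between libraries is a spread between pools. Input libraries were not analysed here, and an IP level therefore holds both the amount of a transcript and its methylation.

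Plasma proteins are made in bulk by hepatocytes and, early in gestation, by the visceral endoderm of the yolk sac, and are secreted into the blood. Their genes are switched on together in these endodermal cells by a small set of transcription factors, among them the forkhead (FOXA), HNF1 and HNF4 families, and Afp is the hallmark of the fetal hepatocyte. Heart muscle is not known as a source of albumin or fibrinogen, while transferrin is also made outside the liver, for example in the brain and the testis. In a bulk pool, fewer cells of a type and less RNA per cell cannot be told apart.

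The promoters of 4 of the genes are shown as background. Whether their letters bear on the levels across the libraries was not tested. Each is the 130 bases that end at the base before the annotated start, on the plus strand, from RefSeq (GRCm38.p6): Alb at chr5:90460740-90460869, Afp at chr5:90490584-90490713, Apoa1 at chr9:46228500-46228629 and Ahsg at chr16:22891885-22892014. Capitals mark the forkhead core TGTTTNC and the HNF1 half-site GTTAAT, on either strand.
Alb: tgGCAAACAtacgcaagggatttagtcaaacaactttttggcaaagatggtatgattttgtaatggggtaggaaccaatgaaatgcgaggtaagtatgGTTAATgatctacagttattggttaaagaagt
Afp: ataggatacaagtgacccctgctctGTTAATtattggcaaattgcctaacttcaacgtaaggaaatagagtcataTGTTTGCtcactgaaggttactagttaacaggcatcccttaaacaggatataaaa
Apoa1: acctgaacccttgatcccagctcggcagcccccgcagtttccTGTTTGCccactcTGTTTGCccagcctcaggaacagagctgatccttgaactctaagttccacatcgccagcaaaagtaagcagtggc
Ahsg: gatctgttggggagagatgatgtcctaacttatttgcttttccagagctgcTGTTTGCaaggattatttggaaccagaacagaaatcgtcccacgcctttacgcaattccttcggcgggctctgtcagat

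Of the 10 genes, 8 matched an entry in the promoter table; Ttr and Trf are named only. Within the 250 bases before the start, searched on both strands, TGTTTNC was present in 8 of those 8 genes, against 17.8% of the 32851 promoters in the table. GTTAAT was present in 3 of 8 (Alb, Afp and Fgb), against 6.43% of all promoters, and the TATA-box letters TATAAA in 3 of 8, against 12.4%. The matches in the members did not overlap one another. The motifs were picked after these windows had been looked at, and a match is a description of letters, not of a factor's binding.

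Summed over all gene windows, the libraries held 20205024, 24031476 and 28251706 reads in nano-TiO2 1, 2 and 3, and 30862986, 31523675 and 22151447 reads in sham 1, 2 and 3. Reads outside the windows are not in these totals, and a read in overlapping gene entries may count more than once. The 4 genes with the most reads took 18.0%, 8.03% and 14.8% of them in the nano-TiO2 libraries and 22.0%, 35.2% and 20.6% in the sham libraries, so that sham 2 also had the highest share there; the part of that in the results below was not tested beyond the scalings given in the closing section. The files give Ensembl IDs with no symbols, and marker lists of heart, liver, yolk sac and red cells, which are lists of symbols, could not be applied; the labelled tissue was therefore not checked against its markers. A level below is the number of normalized IP reads of a gene, that is, whole reads divided by 1 size factor per library. It is not divided by gene length, so levels are compared between libraries and not between genes.

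All 6 heart libraries held RNA fragments of plasma protein genes, and sham 2 held far more than any other. Reads in the 10 genes numbered 589, 1376 and 1955 in nano-TiO2 1, 2 and 3, and 1330, 26382 and 1858 in sham 1, 2 and 3. Per 1000000 IP reads of the library's total over windows (RPM) this was 29.2 (26.8 to 31.6), 57.3 (54.3 to 60.4) and 69.2 (66.2 to 72.3) RPM in the nano-TiO2 libraries. In the sham libraries it was 43.1 (40.8 to 45.5), 837 (827 to 847) and 83.9 (80.1 to 87.8) RPM. The ranges are exact 95% binomial intervals, which treat each read as independent and cover no spread between pools. Amplified copies of 1 molecule are counted each time, so the ranges may be too narrow even for counting error. Sham 2 thus stood 9.98 times above the next library, sham 3, and 28.7 times above the lowest, nano-TiO2 1, and held 78.8% of the 33490 member reads. The nano-TiO2 group averaged 51.9 ± 20.6 RPM and the sham group 321 ± 447 RPM (SD over 3 libraries each), and in sham the SD exceeded the mean because of 1 library.

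Albumin carries fatty acids and hormones in blood and holds up its osmotic pressure. Alb had 19.0, 81.9 and 181 normalized reads in nano-TiO2 1, 2 and 3, against 81.9, 3697 and 445 in sham 1, 2 and 3. Sham 2 exceeded the next library 8.31-fold, and the other 5 libraries overlapped between the groups. Alpha-fetoprotein, albumin's neighbour on chromosome 5 in the mouse and its counterpart in fetal blood, is silenced in liver after birth. Afp had 11.2, 137 and 142 normalized reads in the nano-TiO2 libraries, against 98.9, 3725 and 304 in the sham libraries. Here sham 2 stood 12.2-fold above sham 3, while nano-TiO2 1 rested on 10 reads.

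Transthyretin carries thyroid hormone and, through retinol-binding protein, vitamin A. Ttr had 24.5, 26.5 and 59.6 normalized reads in the nano-TiO2 libraries, against 70.2, 1767 and 174 in the sham libraries, so that every sham library lay above every nano-TiO2 library. The margin was small, with 74 reads in nano-TiO2 3 and 78 in sham 1. In RPM the order of this pair turned (2.62 and 2.53), and the groups overlapped. Transferrin carries iron to dividing cells. Trf had 473, 669 and 765 normalized reads in nano-TiO2 1, 2 and 3, against 606, 7982 and 781 in sham 1, 2 and 3. It was the exception among the 10: outside sham 2 its level ran over a range of only 1.65-fold, with the groups mixed, yet sham 2 stood 10.2-fold above the next library as for the other members.

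Apoa1 and Apoa2 encode the main proteins of high-density lipoprotein. Apoa1 had 16.7, 89.4 and 130 normalized reads in the nano-TiO2 libraries, against 125, 5659 and 305 in the sham libraries. Its ratio of sham 2 to the next library, 18.5, was the highest of the 10. Apoa2 had 6.70, 20.7 and 34.6 normalized reads in the nano-TiO2 libraries, against 63.9, 2319 and 173 in the sham libraries, and the groups did not overlap. Apob, the structural protein of low-density lipoprotein, was the scarcest member, with 0, 3 and 4 reads in the nano-TiO2 libraries and 3, 40 and 4 in the sham libraries. The 0 in nano-TiO2 1 has an upper exact 95% Poisson limit of 3.69 reads.

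Apoh, or beta-2-glycoprotein I, binds phospholipid surfaces and tempers coagulation. It had 7.81, 15.7 and 14.5 normalized reads in the nano-TiO2 libraries, against 16.2, 274 and 23.0 in the sham libraries. The groups did not overlap, but nano-TiO2 2 and sham 1 differed by 1 read (19 and 18). In RPM the groups overlapped, with 0.791 in nano-TiO2 2 and 0.583 in sham 1. Fetuin-A, the product of Ahsg, keeps calcium phosphate in solution and is abundant in fetal blood. Ahsg had 94.8, 82.8 and 221 normalized reads in the nano-TiO2 libraries, against 118, 2898 and 262 in the sham libraries, and was the only member whose lowest library was nano-TiO2 2. Fgb encodes 1 of the chains of fibrinogen, the precursor of the fibrin clot. It had 3.35, 13.2 and 24.2 normalized reads in the nano-TiO2 libraries, against 13.5, 531 and 37.8 in the sham libraries, a ratio of 14.0 between sham 2 and sham 3.

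**Figure D1:**
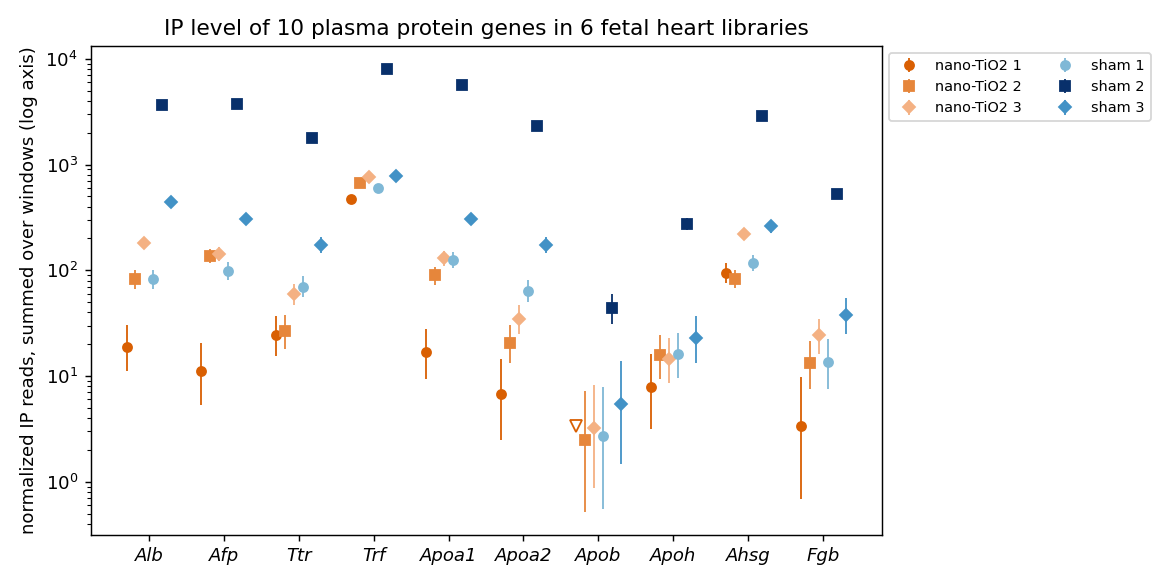
Normalized IP reads of the 10 genes (log axis) in each of the 6 libraries, with exact 95% Poisson intervals for counting error only; the open triangle is Apob in nano-TiO2 1, which had 0 reads, drawn at the value of 3 reads. Sham 2 (dark squares) lies at least 8.10-fold above every other library for each gene, and sham 3 is second each time.

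All members shared the excess of sham 2 and differed in how large it was. Its level was 8.10 to 18.5 times that of the next library, with a median of 11.5, and 11.9 (Trf) to 67.0 (Apoa2) times the median of the other 5. Sham 2 was the highest library for 10 of 10 members, as it was for 14.3% of the 18566 genes with a mean of at least 10. It was at least 4-fold above every other library for 9 of the 9 members in that set, against 0.555% of its genes (103 genes). These members were chosen for this, and the counts describe the choice. Apob, with a mean of 9.60, fell short of the set. The median gene stood in sham 2 at 0.702 of its highest level elsewhere.

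A gene that stands 4-fold above in 1 library was rare in the other libraries. Such genes numbered 1, 7 and 13 in nano-TiO2 1, 2 and 3 and 2, 103 and 2 in sham 1, 2 and 3. The 94 such genes of sham 2 that are not members had a median ratio of 11.1 to the next library and reached 52.7. They held 29410 of its reads, or 933 RPM, beside the 837 RPM of the 10 plasma protein genes. Their second library was sham 3 in 48 of 94 and their lowest nano-TiO2 1 in 67 of 94.

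Among those 94, likeness to the members was measured as Pearson's r over the 6 libraries between the log2 level and the mean centred profile of the members. The 2 most alike were ENSMUSG00000071177 (r = 0.999) and ENSMUSG00000071178 (r = 0.997), which the files do not pair with names. ENSMUSG00000071177 had 5, 26 and 39 reads in the nano-TiO2 libraries and 34, 1424 and 55 in the sham libraries. ENSMUSG00000071178 had 8, 33 and 83 reads in the nano-TiO2 libraries and 61, 1968 and 96 in the sham libraries. In all, 43 of the 94 had an r above 0.95, a range that also holds the members themselves (0.954 for Trf to 0.997 for Fgb and Apoa1). Each member is part of the mean profile it was set against, which raises its r, so the members and the 94 are not on a par. These r values share the libraries and rest on sham 2, so they carry no p.

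**Figure D2:**
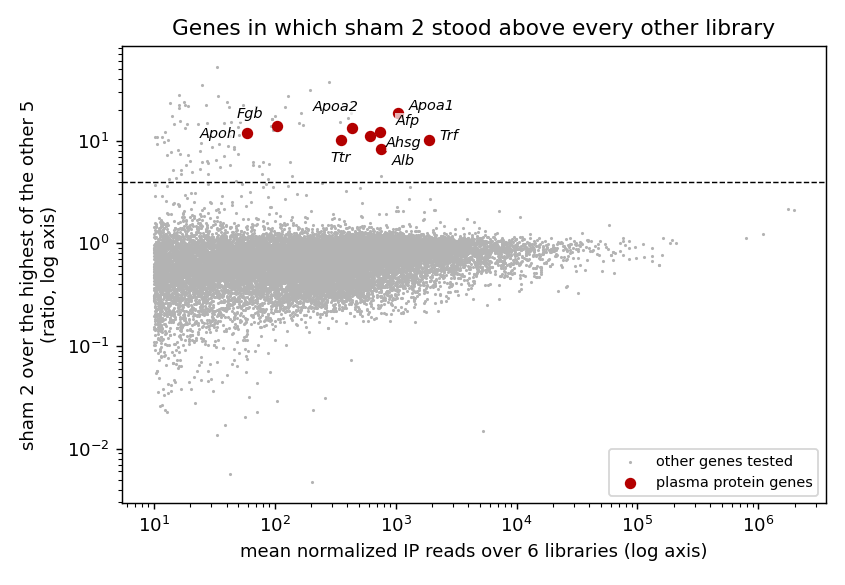
Level in sham 2 over the highest of the other 5 libraries (log axis) against the mean normalized IP reads (log axis) for the 18566 genes with a mean of at least 10; the dashed line is 4-fold and genes with no read in sham 2 are not drawn. The 9 plasma protein genes in the set (red) lie between 8.31 (Alb) and 18.5 (Apoa1), above a cloud whose median is 0.702.

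Sham 2 did not hold these transcripts alone. Of the 60 pairs of member and library, 59 had at least 1 read, although 20 of the 60 had under 30. Outside sham 2 the members also shared their highest library and, but for Ahsg, their lowest, while the middle places varied. Sham 3 was second in 10 of 10, and in 9 of the 9 members in the tested set, while 20.6% of genes had sham 3 as the highest of these 5 libraries. Nano-TiO2 1 was lowest of the 5 in 9 of 10, and in 8 of the 9 in the set, against 24.7% of genes. Members share libraries and depth and are not independent of each other, so the count of genes adds no replicate to a library. The ratio of the highest to the lowest of these 5 libraries had a median of 11.3 over the 9 members for which it exists, with Afp at 27.3, Apoa2 at 25.8 and Alb at 23.4 at the top and Ahsg at 3.17, Apoh at 2.94 and Trf at 1.65 at the bottom. The same ratio had a median of 2.12 over all genes tested.

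The mix of the members differed between libraries. Trf gave 72.0%, 58.8% and 48.6% of the member reads in nano-TiO2 1, 2 and 3, and 50.7%, 27.6% and 31.1% in sham 1, 2 and 3. Alb gave 2.89%, 7.19% and 11.5% in the nano-TiO2 libraries, and 6.84%, 12.8% and 17.7% in the sham libraries. The share of Trf was thus lowest in sham 2 and sham 3, the libraries with the highest member RPM, and highest in nano-TiO2 1, with the fewest. Reads of Alb per read of Afp numbered 1.70, 0.600 and 1.28 in the nano-TiO2 libraries (1.70 resting on 17 and 10 reads), and 0.827, 0.992 and 1.46 in the sham libraries. Reads of Apoa1 per read of Apoa2 numbered 2.50, 4.32 and 3.74 in the nano-TiO2 libraries, and 1.96, 2.44 and 1.77 in the sham libraries. Of 5 such ratios between members that were looked at, this was the 1 whose groups did not overlap, on 15 and 6 reads in nano-TiO2 1, and it is named after its values were seen.

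**Figure D3:**
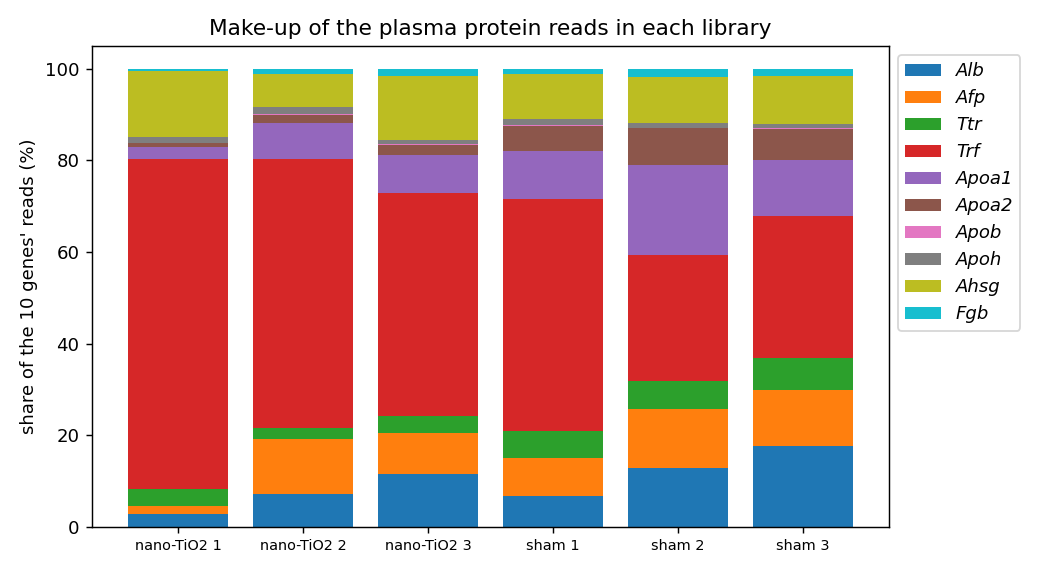
Share of the 10 genes' reads (%) given by each gene in each library, with the nano-TiO2 libraries on the left and the sham libraries on the right; reads are not divided by gene length. Trf (red) is the broadest band in every library, with 72.0% in nano-TiO2 1 and 27.6% in sham 2, where Apoa1 (purple) reaches 19.6%.

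Between the exposure groups, all 9 members in the tested set were lower in nano-TiO2, with log2 changes (limma, nano-TiO2 minus sham) from -4.03 ± 1.14 (SE) for Apoa2 to -1.32 ± 0.82 for Trf. The median was -2.94, beside 0.13 over all genes. Ttr (-3.01 ± 0.98) and Apoa2 were called lower, 2 of 9, at a Benjamini-Hochberg adjusted p under 0.05 over 18566 genes, where 12% of genes were called lower. Sham 2 enters this contrast and was the basis of the choice, so nothing is read from the count. In normalized reads, groups did not overlap for 3 of 10 members, Ttr, Apoa2 and Apoh, beside 18.5% of genes in this direction. Of these 3, Apoa2 alone kept its groups apart in RPM. Alb shows the spread behind such a value, with 94.0 ± 81.8 normalized reads over the nano-TiO2 libraries and 1408 ± 1991 over the sham libraries (SD, n = 3 each).

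With sham 2 left out, the remaining 3 nano-TiO2 and 2 sham libraries gave smaller differences. The median log2 change of the 9 members was then -1.49. Apoa2 was at -2.55 ± 0.68, Ttr at -1.68 ± 0.50 and Alb at -1.52 ± 0.95, while Ahsg was at -0.55 ± 0.48 and Trf at -0.14 ± 0.25 (SE). The same 2 genes, Ttr and Apoa2, were called lower in nano-TiO2 by limma, 2 of 9, where 9.06% of genes were called lower. In normalized reads the same 3 members, Ttr, Apoa2 and Apoh, had groups that did not overlap. These were 3 of the 9 in the tested set, where 20.2% of its 18596 genes did so in this direction. In RPM, Apoa2 alone of these 3 did so. For Apoa2 the highest nano-TiO2 library stood at 34.6 normalized reads and the lowest sham library at 63.9. Without nano-TiO2 1, the library with the fewest member reads, Apob also reached the mean of 10 and 0 of 10 members were called by limma, where 8.81% of genes were called lower. At an unadjusted p under 0.05 there were 2 of 10 members, beside 42.2% of genes.

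Where along a gene the reads lay was not used in choosing the members. The profile over windows was much the same in sham 2 as in the pooled reads of the other 5 libraries for the genes with most reads. The shared part of the 2 profiles was 91.8% for Apoa2, 91.0% for Trf, 86.9% for Ahsg, 86.1% for Apoa1, 85.5% for Alb, 84.9% for Ttr and 84.2% for Afp. Reads of Alb lay toward high window numbers, with 64.7% of them in the last of 3 equal stretches in sham 2 and 66.0% in the other 5. Reads of Ttr lay toward low window numbers, with 64.2% in the first stretch in sham 2 and 69.3% in the other 5. The sources used here do not say which end of a gene model is 5′. Fgb shared 60.4% of its profile, with only 92 reads in the other 5 libraries, and its last stretch held 75.5% of reads in sham 2 and 71.7% elsewhere. Apob shared 7.50%, with 14 reads elsewhere, too few to draw a profile.

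Apoh shared the least of its profile among the members with more than 14 reads outside sham 2, 31.8% on 79 such reads, and the plainest difference was near the start of its gene model. The window that starts at position 51 held 5 of 7, 17 of 19 and 7 of 18 reads in nano-TiO2 1, 2 and 3. It held 4 of 18, 2 of 250 and 3 of 17 reads in sham 1, 2 and 3. The window before it, at position 26, also held a larger part of the reads outside sham 2 (6 of 79, against 1 of 250 in sham 2). By library, the window at position 26 held 0, 2 and 1 reads in nano-TiO2 1, 2 and 3, and 3, 1 and 0 in sham 1, 2 and 3. It was thus thin everywhere. The window at position 51 was poor in sham 2 when the rest of the gene was rich there. Outside both windows, Apoh had 2, 0 and 10 reads in the nano-TiO2 libraries and 11, 247 and 14 in the sham libraries. There sham 2 stood 14.3-fold above the next library in place of 11.9-fold for the whole gene. The profiles shared 48.2% there, with 37 reads in the other 5 libraries. How much of a profile is shared by sampling alone at such a depth was not tested. These windows were singled out after their values were seen.

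The test of windows within genes (limma's diffSplice, nano-TiO2 against sham) covered 248 windows of 7 members: Alb, Afp, Ttr, Trf, Apoa1, Apoa2 and Ahsg. These windows reached the mean of 10 that the test needs through sham 2: only 16 of the 248, in 1 gene, would reach it over the other 5 libraries. None was called, 0 of 248, beside 116 of 249423 windows over all genes (0.0465%). At an unadjusted p under 0.05 there were 0 of 248, beside 3.26% of all windows, and without sham 2 there were 6 of the same 248, beside 3.40%. Because the windows were let in by the library on which the members were chosen, nothing is read from these counts. Windows of Apoh, Apob and Fgb did not reach the mean of 10 in at least 2 windows. Sham 2 held 68.0% (Trf) to 88.8% (Apoa1) of a member's reads, so elsewhere these windows were thin and a change limited to few windows may not have been detectable at this depth.

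**Figure D4:**
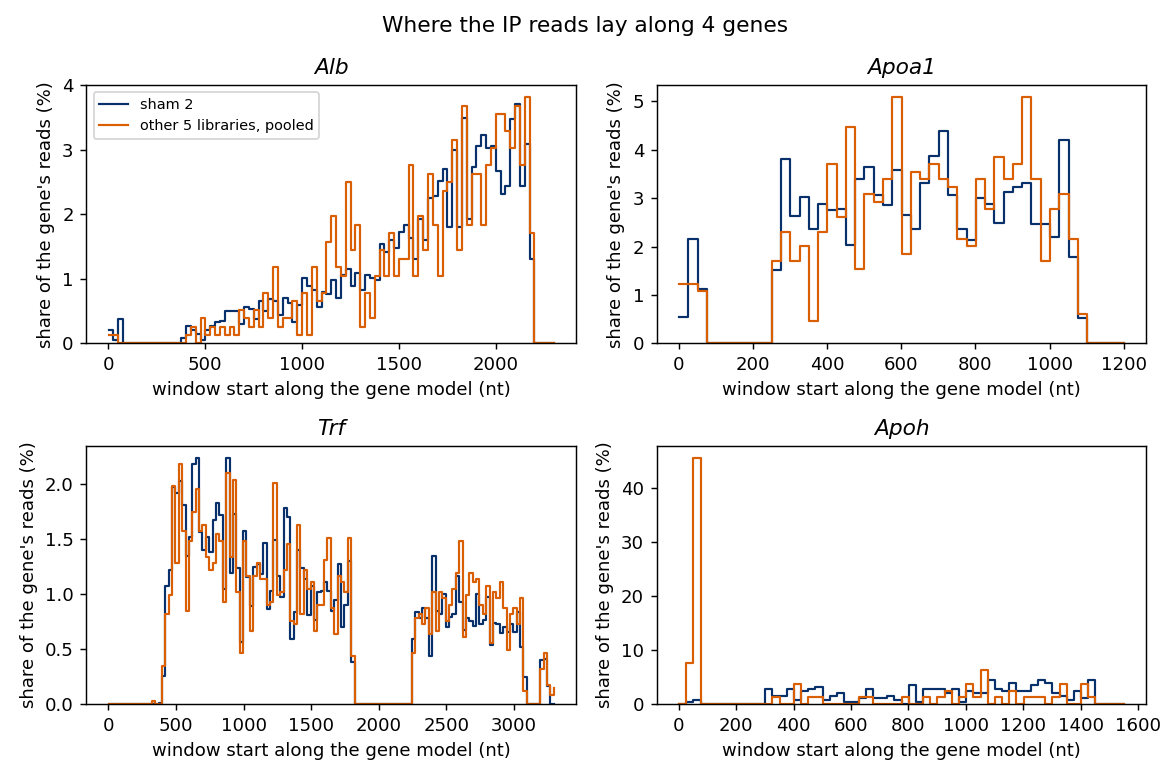
Share of a gene's IP reads (%) in each window against the window's start along the gene model (nt), for sham 2 (blue) and the other 5 libraries pooled (orange). The lines run together for Alb, Apoa1 and Trf, which share 85.5%, 86.1% and 91.0% of the profile, and part for Apoh, where 36 of the 79 pooled reads lie in the window at position 51.

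The second deposited table, called adjusted, removed the excess of sham 2. In it each normalized value is divided by 1 factor per gene and library. The adjusted level of Alb was 510, 987 and 580 in the nano-TiO2 libraries and 835, 758 and 731 in the sham libraries, so that sham 2 lay in the middle. Afp was at 1149, 925 and 688 in the nano-TiO2 libraries and 733, 733 and 765 in the sham libraries. Trf was at 2260, 2234 and 1991 in the nano-TiO2 libraries and 1777, 1867 and 1601 in the sham libraries. Apoa1 was at 710, 1252 and 1173 in the nano-TiO2 libraries and 946, 1067 and 850 in the sham libraries, and Ahsg at 595, 530 and 700 against 548, 624 and 529. In these genes all 6 libraries came to lie within 1.94-fold of each other.

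The genes with the fewest reads were more uneven after adjustment. Ttr was at 1385, 264 and 518 in the nano-TiO2 libraries and 491, 336 and 446 in the sham libraries. Apoa2 was at 592, 248 and 316 in the nano-TiO2 libraries and 600, 433 and 540 in the sham libraries. Fgb was at 294, 272 and 98 in the nano-TiO2 libraries and 105, 102 and 108 in the sham libraries. The high values of nano-TiO2 1 rest on a handful of reads. Its 294 for Fgb came from 3 reads (exact 95% Poisson interval of the adjusted value 60.6 to 859), its 592 for Apoa2 from 6 reads (217 to 1289), its 1149 for Afp from 10 reads (551 to 2113) and its 1385 for Ttr from 22 reads (868 to 2097). For Afp, 1 read counted for 115 adjusted units in nano-TiO2 1 and for 0.216 in sham 2. Apoh was at 71, 67 and 68 in the nano-TiO2 libraries and 87, 57 and 34 in the sham libraries, and Apob at 0, 9 and 8 against 6, 10 and 4.

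Sham 2 was the highest library in the adjusted table for 1 of 10 members (Apob, on 40 reads) and the lowest for 0 of 10. Its ratio to the highest other library had a median of 0.745. It was at least 4-fold above every other library for 0 of 10 members, beside 0.212% of the 19361 genes (41 genes) with a mean adjusted level of at least 10. Of the 94 genes with the same excess before adjustment, 0 kept a 4-fold excess and 2 had sham 2 as the highest library. The 10 members together made up 291, 263 and 236 of every 1000000 adjusted units in nano-TiO2 1, 2 and 3, and 230, 233 and 208 in sham 1, 2 and 3.

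Between the groups, 0 of 9 members were called in the adjusted level by limma, as were 0 of 19361 genes (0%). At an unadjusted p under 0.05 there were 2 of 9, Trf and Fgb, beside 18.6% of all genes. The log2 change was 0.31 ± 0.10 (SE) for Trf and 0.91 ± 0.36 for Fgb, with nano-TiO2 higher, and -0.53 ± 0.27 for Apoa2 and -0.22 ± 0.21 for Alb. Leaving out 1 library moved Apoa2 between -0.89 (without nano-TiO2 1) and -0.26 (without nano-TiO2 2), Alb between -0.51 (without nano-TiO2 2) and -0.03 (without nano-TiO2 1) and Fgb between 0.63 (without nano-TiO2 1) and 1.42 (without nano-TiO2 3). With TMM scaling Trf was at 0.15 and was no longer among the members with an unadjusted p under 0.05. The median over the 9 was 0.28, beside 0.17 over all genes. It lay below that of all genes without nano-TiO2 1 (0.11, beside 0.22) and without sham 3 (0.05, beside 0.15). Trf was the only member whose adjusted groups did not overlap with nano-TiO2 higher, 1 of 10, against 19.4% of genes. Its adjusted level averaged 2162 ± 148 over the nano-TiO2 libraries and 1748 ± 135 over the sham libraries (SD, n = 3 each). Median changes thus stood at -2.94 in the normalized table and 0.28 in the adjusted one for the same reads.

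**Figure D5:**
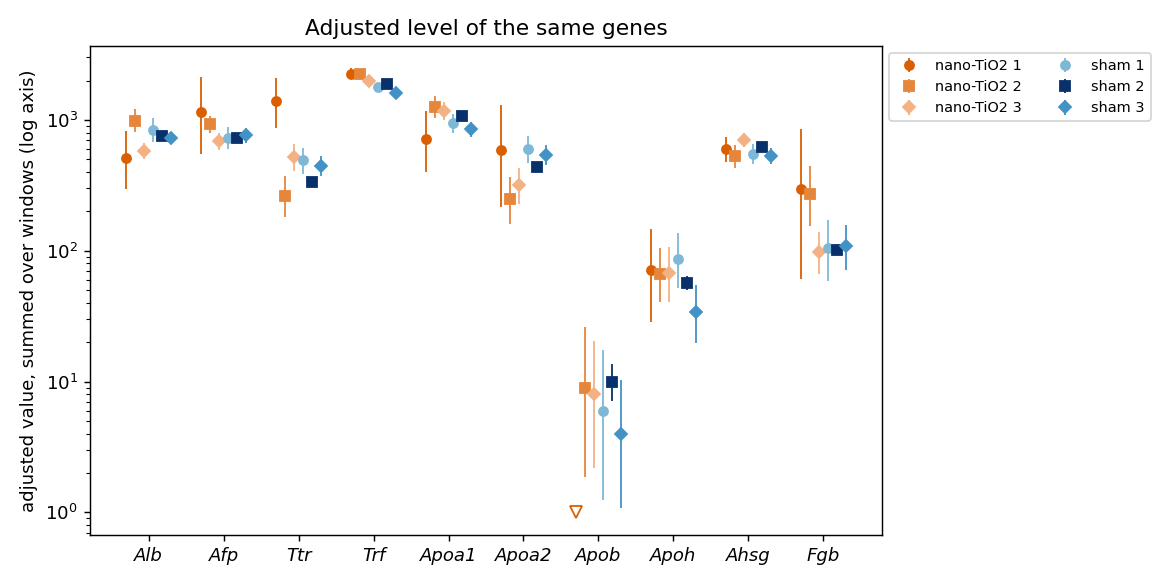
Adjusted level of the 10 genes (log axis) in the 6 libraries, with exact 95% Poisson intervals of the reads, scaled like the value; the open triangle marks Apob in nano-TiO2 1, listed at 0. Sham 2 (dark squares) lies among the other libraries, and the intervals are widest in nano-TiO2 1, as for Fgb (60.6 to 859).

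For the members, the factor that turns 1 table into the other was also largest in sham 2. It could be recovered within a relative width of 0.2 for 13672 genes and for 9 members, all but Apob. The 6 factors of a member had a mean between 0.998 and 1.01, so 1 library's factor cannot much exceed 6. In sham 2 it was 4.27 for Trf, 4.60 for Apoh, 4.66 for Ahsg, 4.86 for Alb, 5.10 for Afp, 5.18 for Fgb, 5.25 for Ttr, 5.31 for Apoa1 and 5.37 for Apoa2. In the other 5 libraries the members' factors ran from 0.00973 (Afp in nano-TiO2 1) to 0.680 (Apoh in sham 3). A factor of at least 4 in sham 2 was found for 9 of 9 members, against 0.278% of genes (38 of 13672), and the median over all genes was 1.02. The factor is recovered from the same IP values on which the members were chosen, so this count describes the choice. The sources used here do not give the measurement behind the factor. For these 9 genes it was largest in sham 2, as the IP level was.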

How the data were processed

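Each library was placed in its group by its title. Tools named in the submitters' processing notes, with no roles, are Salmon 1.5.2, HISAT2 2.2.1 and DESeq2 1.34.0, and the build named there is GRCm39. The authors deposited a normalized table of IP signal per window, the same table again under the name filtered, and an adjusted table of whole-number scores. Within a tolerance of 0.0001, 100% of normalized values were whole multiples of a step that is fixed in each library, so the reads behind the signal could be recovered. In the adjusted table every gene and library was reached from the normalized one with 1 factor and rounding, with 0 exceptions.

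Windows were summed per gene. Genes with a mean of at least 10 were tested on log2(value + 1) with limma 3.58.1 (trend, two-sided, Benjamini-Hochberg at 0.05, no covariates) in R 4.3.3, which understates changes of low genes, and windows within genes with diffSplice. The unit was no raw count, so edgeR 4.0.16 and DESeq2 1.42.0 on the recovered reads were alternatives. The fits were tested on simulated data. Intervals came from SciPy 1.17.1. Labels do not say that pools came from separate litters, so p-values measure the spread between these pools.

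The members and lists were chosen with earlier results of these data known. All 10 members are named. Outside them, the rule took the 10 genes most like the members' mean profile among those 4-fold above in sham 2, of which 2 IDs are printed. Sequences are from RefSeq (GRCm38.p6).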

Additional observations from a re-analysis of the deposited data

How the results depend on the processing

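The count of members called lower in nano-TiO2 in IP level, 2 of 9 by limma where 12.0% of all genes were called lower, depended on the setting. It was 8 with edgeR (14.2% of all genes), 7 with DESeq2 (18.8%), 1 with equal library totals outside the 4 genes with the most reads (5.43%), and 6 with the replicate block (12.0%). DESeq2 gave no p for the other members, Trf and Apoh. Same-numbered libraries did not deviate together (r of -0.37, 0.18 and 0.02). Libraries of unlike number ran from -0.56 (nano-TiO2 2 with sham 3) to 0.52 (nano-TiO2 1 with sham 3). With 3 libraries per group these r values cannot exclude a pairing, so whether the numbers pair the samples was not settled. Leaving out 1 library gave 0 to 6 calls (0 without nano-TiO2 1, 1 without nano-TiO2 2, nano-TiO2 3 or sham 3, and 6 without sham 1), where 8.41% to 11.7% of all genes were called lower. For the 9 members, the IP change kept its sign in all 135 alternatives. All settings but the one without sham 2 hold the library on which the members were chosen, so nothing is read from this. Without sham 2, Trf was at -0.14 ± 0.25 and Ahsg at -0.55 ± 0.48 (SE). The median member change, -2.94, was -3.82 with edgeR, -3.96 with DESeq2 and -3.81 to -1.49 with 1 library left out (-1.81 without nano-TiO2 1). Equal totals outside the 4 genes moved the median of all genes to 0.40. The median member change in the adjusted level, 0.28, was 0.05 to 0.31 with 1 library left out and 0.12 with TMM or quantile scaling, which put the median of all genes at 0.01 and 0.02. In the adjusted level signs held in 99 of 108 alternatives; the 9 exceptions lay in Ttr, Apoa1, Apoh and Ahsg, none of them called. Genes called in the adjusted level numbered 1895 of 19352 without sham 2 (1628 higher and 267 lower in nano-TiO2), in a range of 0 to 1895 over libraries left out. Of the 9 members, 0 were called there, and nothing is read from so small a set. Windows called within genes numbered 10 at a mean of at least 50 and 87 to 170 with 1 library left out. The median ratio of sham 2 to the next library, 11.5, was 9.41 with equal library totals, 12.0 with equal totals outside the 4 genes, 6.92 with the highest window of each gene, and 0.745 in the adjusted table, which reversed it. The share of sham 2, 837 RPM, was 1292, 478 and 233 under the last 3 of these. Genes above every other library in sham 2 numbered 166 at 2-fold and 69 at 8-fold, settings added after seeing the data. Depth limits what the other 5 libraries show: 20 of 60 pairs of member and library had under 30 reads.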
